A study of Homo sapiens with 12 samples.

Results

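The genes described here are 46 coagulation and complement genes, chosen by name and with earlier results of these data known. They come from the 28256 gene symbols of the deposited table. They were measured by RNA sequencing in HepG2, an established human hepatoma line of hepatocyte-like cells, labelled wild type. All cells were first held for 24 h in growth medium with charcoal-stripped serum, which is depleted of steroid hormones, and were then treated for 24 h. Each of the 4 groups has 3 libraries. DexKLA cells received Dex and KLA together, with no doses restated in the titles, Dex cells received 50 nM Dex (dexamethasone, per the series title), KLA cells received KLA at the labelled 100 ng/µl, and DMSO cells received 0.1% DMSO as vehicle. The labels leave KLA unexplained, and they are silent on DMSO in treated cells and on whether replicates came from separate cultures. The p-values therefore rest on the spread of these libraries, which could be technical alone.

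Hepatocytes make most of the clotting and complement proteins of blood plasma. Coagulation is a cascade in which proteases activate one another until thrombin turns fibrinogen into fibrin, and anticoagulants and plasmin hold it in check. Complement is a related cascade, started by antibody, by lectins such as mannose-binding lectin or by slow self-activation, which converges on C3 and ends in a pore of the terminal components. Dexamethasone is a synthetic glucocorticoid that acts through the glucocorticoid receptor.

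The 12 libraries held between 3317739 and 20933501 counts when 1 transcript was kept per gene. All KLA libraries were deeper than all DMSO libraries, so a difference between KLA and DMSO cannot be told apart from a difference in depth. On the first principal component, which held 27.9% of the variance, DMSO replicate 1 (-39.6) and KLA replicate 3 (23.4) lay farthest apart. Defining hepatocyte markers were abundant, with ALB, albumin, the highest. The 8 genes summed to 124004 to 150756 CPM (counts scaled to library size) in DexKLA, 128750 to 136353 CPM in Dex, 117953 to 126299 CPM in KLA and 98760 to 113511 CPM in DMSO. This sum was lower in all DMSO libraries, and its part in the results was not tested. By contrast 5 macrophage markers summed to 41.1 to 54.6 CPM, 5 endothelial markers to 2.88 to 5.49 CPM and 5 stellate or fibroblast markers to 21.0 to 30.6 CPM. The highest single genes were CD68 (up to 54.6 CPM), PECAM1 (3.84 CPM) and PDGFRB (30.2 CPM). Each was the only gene of its set with enough counts to be tested. Of these 15 markers of other cell types, 4 were at 0 in every library (2 macrophage, 1 endothelial, 1 stellate). FKBP5, a known glucocorticoid target, was higher with Dex on average over cells with and without KLA (log2 0.80 ± 0.12, edgeR adjusted p = 0.000261). In Dex versus DMSO the FKBP5 rise missed the threshold for a call given below (log2 0.55 ± 0.17, edgeR adjusted p = 0.0856). FKBP5 was called in DexKLA versus KLA (1.04 ± 0.16, 0.000867). Of the other check genes, HIF3A was called higher in Dex versus DMSO (5.10 ± 0.42, 3.0e-07), from 0.179 to 0.282 CPM in DMSO. NR3C1, the glucocorticoid receptor gene, was not called there (-0.28 ± 0.18, 0.382).

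Of the 46 genes, 44 had enough counts to be tested. F9, coagulation factor IX, had 0 to 2 counts per library and at most 0.222 CPM, and C6, a terminal complement component, had 0 to 5 counts and at most 0.433 CPM. The threshold for a call was an adjusted p of 0.05, from the quasi-likelihood test of edgeR and Benjamini-Hochberg adjustment across the 13166 genes tested. MBL2, KNG1, SERPIND1, VTN and C8B were lower with Dex on average, and TFPI was higher in every treated group than in DMSO. In all, 11 of the 44 members (25%) were called in at least 1 of 7 comparisons, against 15.8% of all tested genes, and 33 in none. Since the members were chosen with earlier results known, their shares here and below are a description and not independent support.

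The promoters of 4 of the genes named above are shown, and those of C8B and SERPIND1 are not. Each runs from 250 bases before to 50 bases after the transcript start on the gene's strand, 5′ to 3′, from RefSeq (GRCh38.p14). Capitals mark AGAACA, a core hexamer of glucocorticoid receptor sites, or TTGCNNAA, a C/EBP-type motif, each searched on both strands.
MBL2: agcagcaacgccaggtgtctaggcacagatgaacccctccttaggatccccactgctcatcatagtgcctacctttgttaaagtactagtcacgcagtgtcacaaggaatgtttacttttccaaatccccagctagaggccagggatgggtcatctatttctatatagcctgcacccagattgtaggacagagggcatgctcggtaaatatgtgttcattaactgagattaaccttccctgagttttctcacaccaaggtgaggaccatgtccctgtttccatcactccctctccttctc
KNG1: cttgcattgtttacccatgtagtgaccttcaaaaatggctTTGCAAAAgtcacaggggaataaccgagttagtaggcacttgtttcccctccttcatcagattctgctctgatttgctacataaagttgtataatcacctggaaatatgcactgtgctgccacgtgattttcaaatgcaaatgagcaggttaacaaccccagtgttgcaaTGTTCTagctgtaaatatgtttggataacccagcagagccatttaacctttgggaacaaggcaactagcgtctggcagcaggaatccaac
VTN: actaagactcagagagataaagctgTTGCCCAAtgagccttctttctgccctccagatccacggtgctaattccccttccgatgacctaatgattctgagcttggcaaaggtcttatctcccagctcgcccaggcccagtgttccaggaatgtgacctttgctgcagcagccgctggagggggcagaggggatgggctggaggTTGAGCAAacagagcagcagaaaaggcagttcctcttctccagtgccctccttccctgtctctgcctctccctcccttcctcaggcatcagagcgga
TFPI: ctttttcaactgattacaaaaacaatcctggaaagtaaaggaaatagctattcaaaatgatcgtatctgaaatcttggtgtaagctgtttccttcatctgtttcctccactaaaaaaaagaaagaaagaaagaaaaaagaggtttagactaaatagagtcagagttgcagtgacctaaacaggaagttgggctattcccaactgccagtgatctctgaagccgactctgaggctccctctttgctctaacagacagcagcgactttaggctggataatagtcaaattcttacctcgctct
The windows are chr10:52771603-52771902 on the minus strand for MBL2, chr3:186717109-186717408 on the plus strand for KNG1, chr17:28370258-28370557 on the minus strand for VTN and chr2:187554386-187554685 on the minus strand for TFPI. KNG1 held TGTTCT, the hexamer on the other strand, with its first base 40 bases before the start, and TTGCAAAA 210 bases before it. VTN held C/EBP-type matches 225 and 47 bases before the start. MBL2 and TFPI, and C8B and SERPIND1, whose windows are not printed, held neither motif in these letters. Windows were found for 37 of the 46 members. The C2 window is set on a start 26718 bases from that of the transcript measured, so it is not that transcript's promoter. It is counted here and held neither motif. For MASP1, whose window held the hexamer, this distance was 285 bases. The hexamer was in 12 of the 37 (32.4%), against 14.8% of 35116 RefSeq promoter windows, and the C/EBP-type motif in 7 (18.9%), against 10.5%. These matches describe letters and were not tested against the changes.

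Levels differed widely between members. Over the 12 libraries and per kb of transcript, C3, the central complement component, was highest at 344 CPM per kb. It was followed by TFPI, the inhibitor of the tissue factor pathway, at 340 CPM per kb, SERPINF2, the plasmin inhibitor alpha-2-antiplasmin, at 336 CPM per kb, and F2, prothrombin, at 257 CPM per kb. CFI, the protease that cleaves C3b and C4b, led the complement inhibitors at 157 CPM per kb, C5 led the terminal components at 74.7 CPM per kb, and C2 led the classical and lectin group at 72.1 CPM per kb. The 46 genes held 0.741% to 0.808% of the counts in DexKLA, 0.792% to 0.824% in Dex, 0.741% to 0.825% in KLA and 0.855% to 0.931% in DMSO, so that every DMSO library lay above all others. Lowest among the tested members were PLAU, the urokinase protease, at 0.542 CPM per kb, and KLKB1, plasma prekallikrein, at 0.789 CPM per kb. SERPINF2 has 2 annotated loci and C2, CFB, C4A and C4B have 6 to 9, so their reads cannot be assigned to 1 locus. The deposited data do not say whether these loci are separate copies of the gene.

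**Figure D1:**
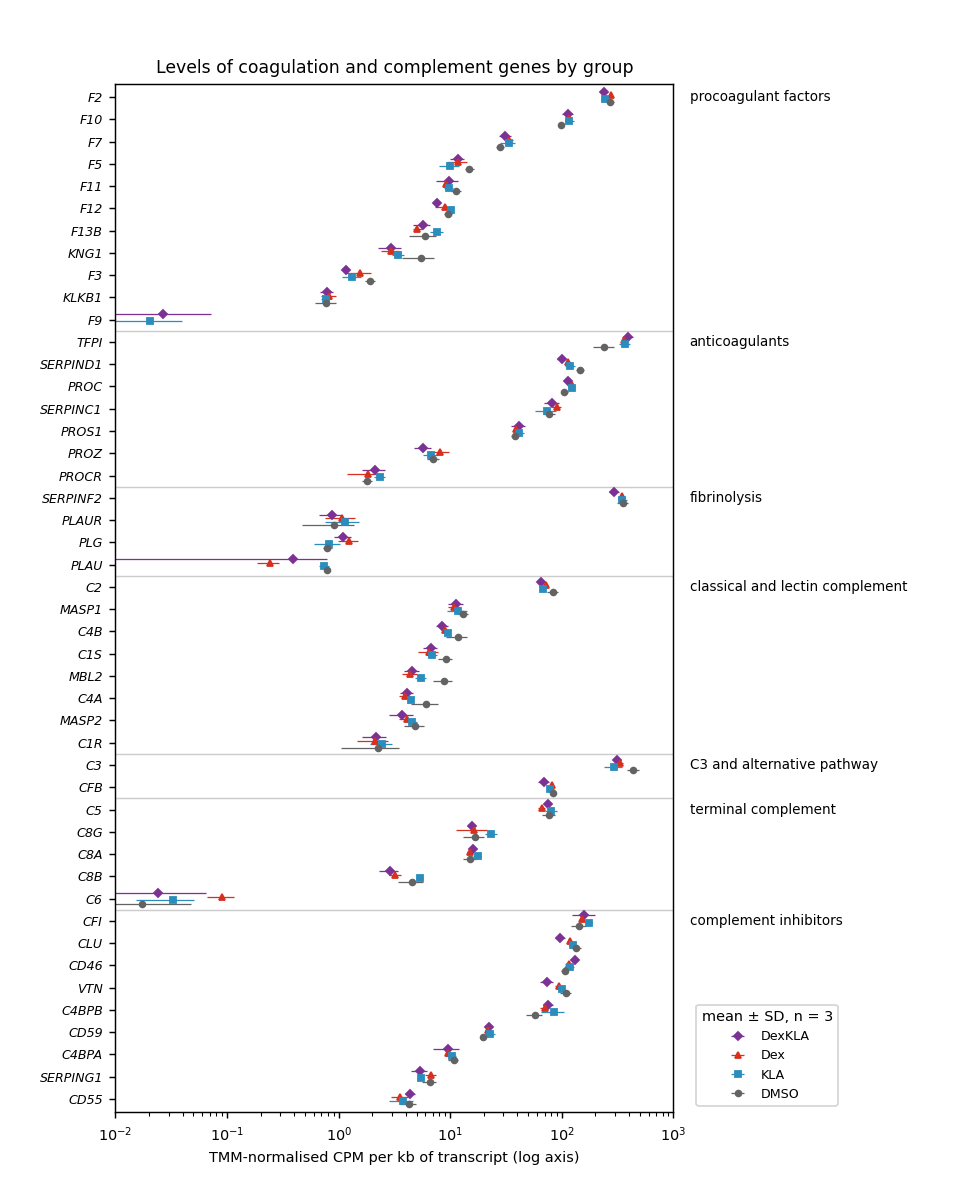
Mean level of each of the 46 genes in each group, in CPM per kb of transcript on a log axis, grouped by role; points are means of 3 libraries and bars the SD, cut off at the left edge. C3, TFPI and SERPINF2 lie highest, and F9 and C6 lie under 0.1 CPM per kb in all groups, with F9 off the axis in Dex and DMSO.

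Several of the most abundant members were not called in any comparison. F2 had 498, 506 and 439.9 CPM in DexKLA, 549, 574 and 563 CPM in Dex, 528, 494 and 454 CPM in KLA, and 594, 506 and 534 CPM in DMSO. SERPINF2 had 701, 726 and 585 CPM in DexKLA, 779, 782 and 789 CPM in Dex, 864, 802 and 715 CPM in KLA, and 909.7, 731 and 773 CPM in DMSO. The lowest of the 12 libraries was DexKLA replicate 3 for both genes, and each group overlapped at least 1 other. C5 had 405, 442 and 390.3 CPM in DexKLA, 389.8, 333 and 353 CPM in Dex, 466, 478 and 373 CPM in KLA, and 358, 416 and 474 CPM in DMSO. CFI had 359.8, 359 and 232 CPM in DexKLA, 299.7, 304 and 303 CPM in Dex, 350.4, 367 and 325 CPM in KLA, and 232, 299 and 315 CPM in DMSO. For CFI the DexKLA libraries alone spread over nearly the whole range of the 12, and for C5 every group overlapped DMSO.

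The first question is what Dex alone did to these genes. MBL2, the mannose-binding lectin that starts the lectin pathway of complement, and KNG1, the kininogen of contact activation, fell in Dex relative to DMSO, and TFPI rose. These are 3 of 44 tested members (6.82%), against 2.05% of all tested genes called. The median change over the 44 members was -0.06 on the log2 scale, against -0.011 over all tested genes. In bulk RNA, fewer cells that make a transcript and less of it per cell cannot be told apart. Dex libraries lay wholly below DMSO libraries for 12 members (27.3%), against 13.6% of all tested genes, and wholly above for 6 (13.6%), against 14.5%.

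MBL2 had 15.8, 13.1 and 18.0 CPM in Dex, against 34.6, 24.0 and 34.5 CPM in DMSO. All Dex libraries were below all DMSO libraries. MBL2 fell by 1.02 ± 0.18 on the log2 scale (SE, edgeR adjusted p = 0.00336). The call held in 11 of 12 fits that each left out 1 library and missed the threshold without Dex replicate 2 (log2 -0.86, edgeR adjusted p = 0.0615). With both libraries that lay farthest apart on the first principal component left out, MBL2 was the 1 member still called in this comparison.

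KNG1 had 15, 10.9 and 11 CPM in Dex, against 25.3, 14.7 and 28.4 CPM in DMSO. A DMSO library lay inside the Dex range, and KNG1 fell by 0.92 ± 0.22 on the log2 scale (edgeR adjusted p = 0.0339). The KNG1 call was lost without DMSO replicate 1 (edgeR adjusted p = 0.159), DMSO replicate 3 (0.157), Dex replicate 2 (0.223) or Dex replicate 3 (0.129), and also with the trend on transcript length removed (0.0521), with depth class as a covariate (0.116) and with DMSO replicate 1 and KLA replicate 3 both left out (0.0649). KNG1 overlaps the antisense gene AC068631.1, and the strand of the libraries is not given in the sources used here, so reads of the pair cannot be told apart.

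TFPI had 1473, 1463 and 1384 CPM in Dex, against 730.1, 1081 and 1059 CPM in DMSO. No Dex library overlapped a DMSO library. TFPI rose by 0.59 ± 0.14 on the log2 scale (edgeR adjusted p = 0.0271). The call was lost without DMSO replicate 1 (log2 0.43, edgeR adjusted p = 0.155), DMSO replicate 3 (0.0521) or any of the Dex replicates (0.0532 to 0.127), and with DMSO replicate 1 and KLA replicate 3 both left out (0.0540). The 2 short TFPI transcripts of 1152 and 1182 bases, which end before the long 3′ end of the transcript used, gave log2 0.68 each, against 0.59 for the 3969-base transcript. TFPI overlaps the antisense gene AC007319.1.

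Members that missed the threshold in Dex versus DMSO included C4A, a classical pathway component near-identical to C4B, at log2 -0.61 ± 0.16 (edgeR adjusted p = 0.0532) and C3 at -0.41 ± 0.13 (0.0876). PLAU gave the lowest fitted value, -1.54 ± 0.55 (0.122), from 0.440 to 0.688 CPM in Dex and 1.75 to 1.97 CPM in DMSO. Fitted values were negative for 51.6% of all tested genes. They were negative for 8 of 8 classical and lectin members (median -0.32), 6 of 10 procoagulant factors (-0.14), 1 of 7 anticoagulants (0.22), 2 of 4 fibrinolysis genes (0.15), 2 of 4 terminal components (-0.10), 4 of 9 complement inhibitors (0.026), and both C3 and CFB. Only 1 classical and lectin member and 1 anticoagulant were called, and the roles were not tested against each other. The count of called members was 0 without Dex replicate 2, 1 without DMSO replicate 1, DMSO replicate 3 or Dex replicate 3, and 6 without KLA replicate 3 or DexKLA replicate 3. In a fit of the 6 shallower libraries, 5 of them from the Dex and DMSO groups, 5 members were called (C3, C4A, KNG1, MBL2 and TFPI).

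**Figure D2:**
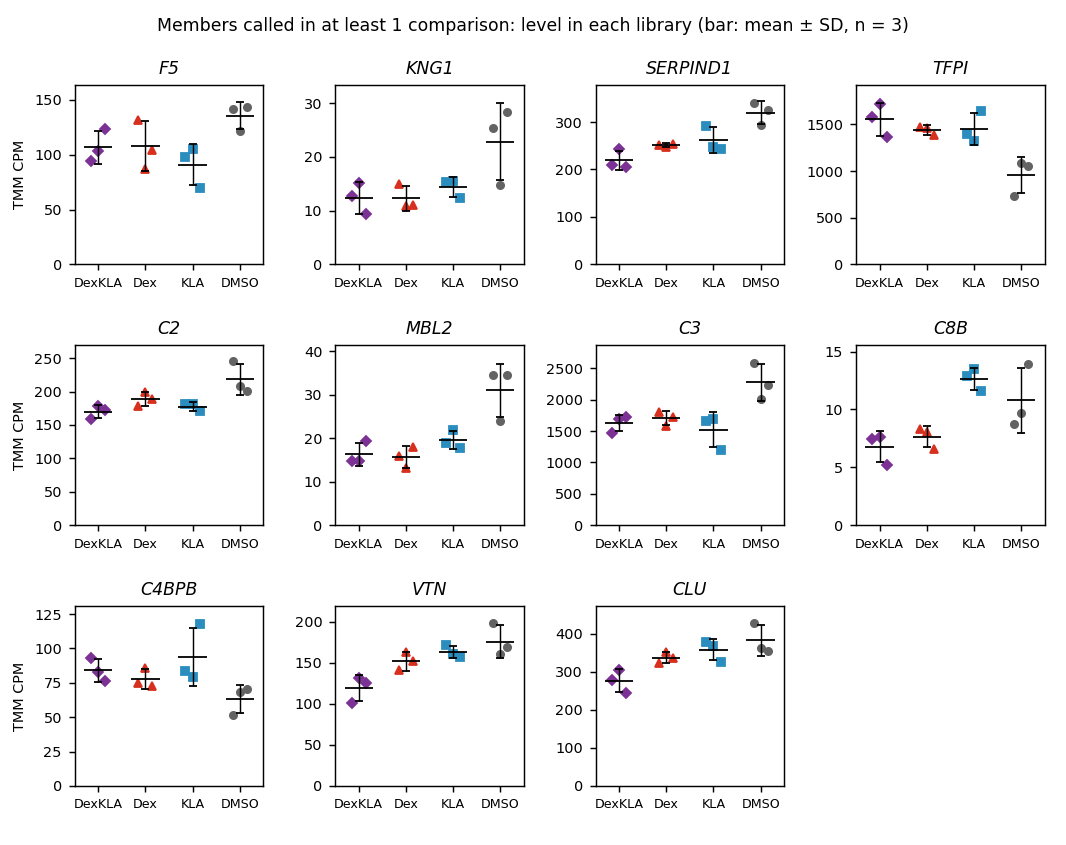
TMM-normalised CPM in each library for the 11 members called in at least 1 comparison, by group, with the mean and SD over 3 libraries on axes from 0. MBL2, C3 and C2 are higher and TFPI and C4BPB lower in all DMSO libraries than in all others, whereas C8B is low in DexKLA and Dex.

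The second question is what Dex did in cells that also received KLA. C8B, the beta chain of the complement component C8 in the terminal pore, fell in DexKLA relative to KLA, and no other member was called. This is 1 of 44 members (2.27%), against 0.653% of all tested genes. C8B had 7.42, 7.66 and 5.23 CPM in DexKLA, 8.32, 8.03 and 6.6 CPM in Dex, 12.9, 13.5 and 11.6 CPM in KLA, and 8.73, 9.69 and 14 CPM in DMSO. All DexKLA libraries were below all KLA libraries. The change was -0.95 ± 0.18 on the log2 scale (edgeR adjusted p = 0.0118). It missed the threshold without KLA replicate 2 (edgeR adjusted p = 0.0503) or DexKLA replicate 3 (0.171). The same held in a fit of the 6 deeper libraries, 5 of them from these groups (log2 -1.03, edgeR adjusted p = 0.110). C8B overlaps the antisense gene AL161740.1.

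Next to C8B on chromosome 1, C8A, which codes for the alpha chain of the same component, had a change of -0.13 ± 0.11 (edgeR adjusted p = 0.707). C8G, the gamma chain, had -0.57 ± 0.17 (0.205). VTN, vitronectin, which blocks insertion of the terminal pore, had -0.45 ± 0.11 (0.0739), and CLU, clusterin, another inhibitor of the pore, -0.38 ± 0.11 (0.163). VTN and CLU were called with C8B when DMSO replicate 1 and KLA replicate 3 were both left out.

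The fitted changes in DexKLA versus KLA were negative for 35 of the 44 members (79.5%), against 49.4% of all tested genes. The median was -0.12, against 0.0031 over all tested genes. DexKLA libraries lay wholly below KLA libraries for 8 members (18.2%), against 7.17% of all tested genes, and wholly above for 0, against 8.09%. Changes in this comparison also moved with transcript length across genes, with Spearman's rho 0.49 over all tested genes and 0.35 over the members, as a description in which genes share libraries. The members' median length was 2410.5 bases, against 3130 bases for all tested genes. With the trend on length removed, 31 members had negative values, the median was -0.09, and C8B was still called. In Dex versus DMSO the trend ran the other way, with rho -0.45 over all tested genes and -0.44 over the members.

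**Figure D3:**
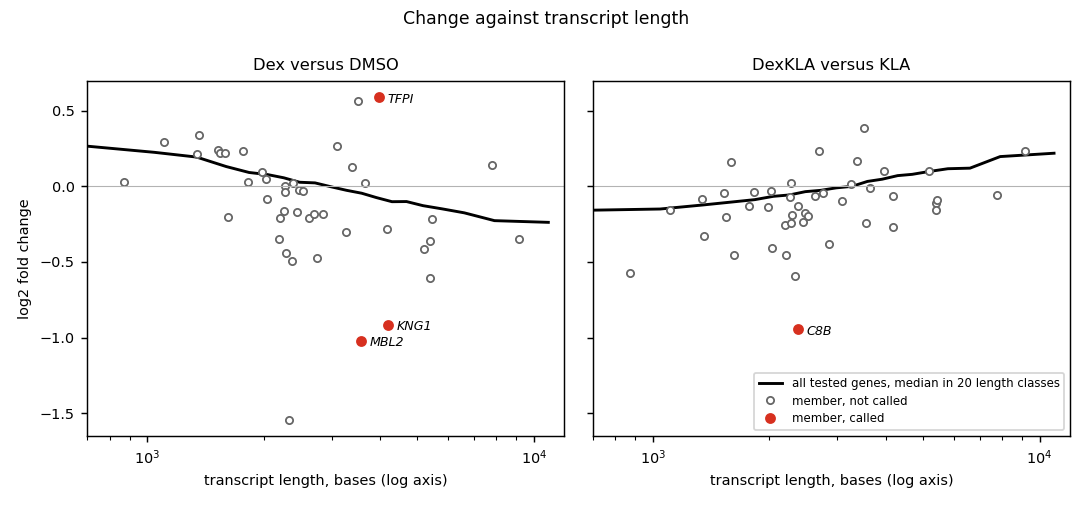
Fitted log2 change of the 44 tested members against transcript length in bases on a log axis, for Dex versus DMSO and DexKLA versus KLA; the line is the median of all tested genes in 20 length classes. Short transcripts lie above 0 on the left and below 0 on the right, and MBL2, KNG1, TFPI and C8B lie away from the line.

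The effect of Dex averaged over cells without and with KLA uses all 4 groups. MBL2, C8B, KNG1, SERPIND1 and VTN fell and no member rose, 5 of 44 (11.4%), against 1.51% of all tested genes called in either direction and 0.638% called lower. MBL2 fell by 0.63 ± 0.12 (edgeR adjusted p = 0.00411) and C8B by 0.72 ± 0.14 (0.00545). Both calls held in all 12 fits that left out 1 library and in all 10 other settings tried. However, C8B was not called in Dex versus DMSO (log2 -0.49), nor MBL2 in DexKLA versus KLA (log2 -0.24). KNG1 fell by 0.59 ± 0.15 (0.0491), a call that held in 4 of the 12 fits, with edgeR adjusted p up to 0.218, and in 5 of the 10 other settings.

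SERPIND1, heparin cofactor II, an inhibitor of thrombin, had 208, 243 and 206 CPM in DexKLA, 252, 247 and 255 CPM in Dex, 293, 248 and 244 CPM in KLA, and 341, 294 and 325 CPM in DMSO. It was lowest in DexKLA and highest in DMSO, with Dex and KLA between them. Its mean Dex effect was -0.30 ± 0.07 (edgeR adjusted p = 0.0382). VTN had 101, 132 and 125 CPM in DexKLA, 141, 164 and 152 CPM in Dex, 171, 161 and 157 CPM in KLA, and 198, 160.2 and 169 CPM in DMSO. The DexKLA libraries were the 3 lowest of the 12. The mean Dex effect on VTN was -0.33 ± 0.08 (edgeR adjusted p = 0.0380). These calls held in 3 of the 12 leave-out fits for SERPIND1 (edgeR adjusted p up to 0.145) and in 5 for VTN (up to 0.137). The count of called members was 2 without DMSO replicate 1, DMSO replicate 3, Dex replicate 3, KLA replicate 1, KLA replicate 2 or DexKLA replicate 1, and 3 without Dex replicate 1 or Dex replicate 2. SERPIND1 lies inside PI4KA and VTN overlaps SARM1, both on the opposite strand. VTN also overlaps the protein-coding gene AC002094.3 on the same strand, by 729 bases.

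No member was called in the interaction, the difference between the Dex effect with KLA and without it, and 0.038% of all tested genes were. At an unadjusted p under 0.05, edgeR and DESeq2 each gave 9 of 44 members (20.5%), near the shares of all tested genes, 22.2% and 19.8%. DESeq2 called 0 members and 5.04% of all tested genes. The largest of these by edgeR was MBL2 at 0.78 ± 0.24 (edgeR adjusted p = 0.0759), with a Dex effect of -0.24 ± 0.16 in the presence of KLA (0.607). For TFPI the interaction was -0.49 ± 0.19 (0.138). Without a filter on low counts, the edgeR interaction called F5, MBL2 and TFPI, with 5.23% of all genes called. Whether the effects of Dex with and without KLA were called different for these 3 members thus depended on the filter. Interaction values also rose with transcript length, with Spearman's rho 0.58 over all tested genes and 0.59 over the members. F5 has a transcript of 9152 bases, and the part of length in these 3 calls was not tested.

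KLA alone was set against DMSO in the third comparison. F5, coagulation factor V, KNG1, MBL2 and C3 fell, and TFPI and C4BPB, the beta chain of C4b-binding protein, rose. These are 6 of 44 members (13.6%), against 13.7% of all tested genes, so the share was near the background. Changes in this comparison also moved with transcript length, with rho -0.47 over all tested genes and -0.43 over the members. KLA libraries lay wholly below DMSO libraries for 10 members (22.7%), against 18.3% of all tested genes, and wholly above for 8 (18.2%), against 17.9%. With depth class as a covariate 0 members were called, and 0 without DMSO replicate 1. All KLA libraries were in the deeper class and all DMSO libraries in the shallower class. The covariate was therefore estimated from the Dex and DexKLA libraries, and within KLA and DMSO it cannot separate depth from KLA. The count was 3 without DMSO replicate 3 or KLA replicate 3, and 10 without DexKLA replicate 3.

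C3 had 1662, 1695 and 1197 CPM in KLA, against 2586, 2012 and 2229.8 CPM in DMSO. The groups did not overlap, and the change was -0.58 ± 0.13 (edgeR adjusted p = 0.0114). F5 had 97.6, 105 and 69.9 CPM in KLA, against 142, 121 and 144 CPM in DMSO, a change of -0.57 ± 0.15 (edgeR adjusted p = 0.02). C4BPB had 83.8, 79.3 and 118 CPM in KLA, against 51.8, 68.5 and 70.3 CPM in DMSO. It rose by 0.55 ± 0.15 (edgeR adjusted p = 0.0194), with its highest value in KLA replicate 3 and no call without that library (log2 0.35, edgeR adjusted p = 0.0935). With the trend on length removed the C4BPB value was 0.30 (edgeR adjusted p = 0.109), and its transcript of 1107 bases is the second shortest among the members. C4BPA, the alpha chain of the same protein and its neighbour on chromosome 1, had -0.07 ± 0.16 (0.791).

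The other KLA calls repeat genes above. MBL2 had 18.8, 21.8 and 17.8 CPM in KLA and fell by 0.66 ± 0.16 (edgeR adjusted p = 0.0141). KNG1 had 15.4, 15.5 and 12.3 CPM in KLA and fell by 0.64 ± 0.20 (0.0388). TFPI had 1394, 1319 and 1645 CPM in KLA and rose by 0.60 ± 0.14 (0.0113). None of the 6 calls held without DMSO replicate 1 (edgeR adjusted p 0.0773 to 0.167). F5, KNG1 and MBL2 were also lost without DMSO replicate 3 (0.0652, 0.217 and 0.0634), F5 and KNG1 without KLA replicate 3 (0.0754 and 0.105), and KNG1 without Dex replicate 3 (0.0519). The KNG1 call was lost too with the trend on length removed and in the KLA and DMSO libraries alone.

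**Figure D4:**
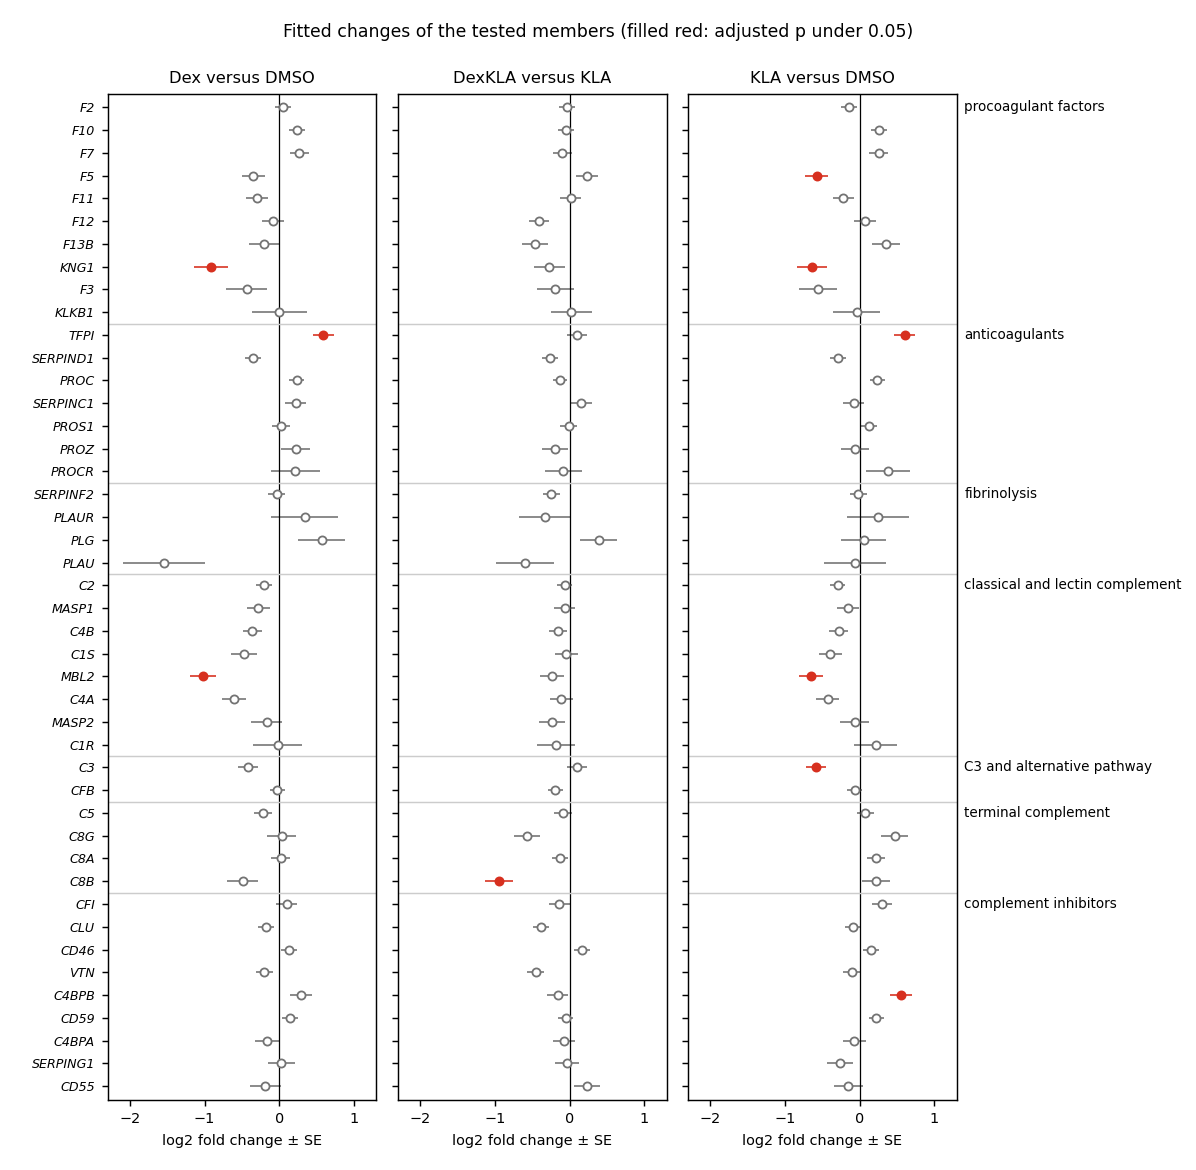
Fitted log2 change ± SE of the 44 tested members by role in Dex versus DMSO, DexKLA versus KLA and KLA versus DMSO; filled red points have an edgeR adjusted p under 0.05. KNG1, MBL2 and TFPI are called in both comparisons with DMSO, which share the DMSO libraries, and C8B in DexKLA versus KLA.

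With both agents, 8 members were called against DMSO (18.2%), against 4.22% of all tested genes. C2, C3, CLU, KNG1, MBL2, SERPIND1 and VTN fell, and TFPI rose. The median over the 44 members was -0.19, against -0.017 over all tested genes, and DexKLA libraries lay wholly below DMSO libraries for 14 members (31.8%), against 12.8% of all tested genes, and wholly above for 4 (9.09%), against 13.4%. The count was 0 without DMSO replicate 1, 1 without DexKLA replicate 1, 5 without DMSO replicate 3 or DexKLA replicate 2, 13 without KLA replicate 3, and 1 (TFPI) with depth class as a covariate. It was 4 (MBL2, SERPIND1, TFPI and VTN) with both DMSO replicate 1 and KLA replicate 3 left out.

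MBL2 had 14.7, 14.9 and 19.3 CPM in DexKLA and a change of -0.90 ± 0.17 (edgeR adjusted p = 0.00723). TFPI had 1576, 1723 and 1367 CPM in DexKLA and a change of 0.70 ± 0.14 (0.00837). KNG1 had 12.7, 15.1 and 9.30 CPM in DexKLA and a change of -0.91 ± 0.22 (0.0254). All DexKLA libraries were below all DMSO libraries for MBL2 and above them for TFPI, and 1 overlapped for KNG1.

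SERPIND1 fell by 0.55 ± 0.11 (edgeR adjusted p = 0.00831) and VTN by 0.56 ± 0.12 (0.0110). CLU had 277, 306 and 245 CPM in DexKLA, 323, 351 and 336 CPM in Dex, 379, 369 and 327 CPM in KLA, and 429, 363 and 356 CPM in DMSO. The DexKLA libraries were again the 3 lowest of the 12, and the change of CLU was -0.47 ± 0.11 (edgeR adjusted p = 0.0232). C3 had 1473, 1693 and 1718 CPM in DexKLA and 1809, 1585 and 1729 CPM in Dex, both below DMSO, with -0.48 ± 0.13 in DexKLA (0.0423). C2, the serine protease of the classical and lectin C3 convertase, had 159.7, 178 and 172 CPM in DexKLA, 179, 199 and 188 CPM in Dex, 181, 181 and 170.4 CPM in KLA, and 245, 209 and 201 CPM in DMSO. All 9 treated libraries were below the DMSO libraries, and the change was -0.36 ± 0.10 (0.0460). C2 overlaps C2-AS1, CFB by 23 bases, and the protein-coding gene AL645922.1 on the same strand by 17956 bases.

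The C2 call held in 2 of the 12 leave-out fits (log2 -0.42 to -0.27, edgeR adjusted p up to 0.272) and the C3 call in 5 (up to 0.271). Without DMSO replicate 1 none of the 8 calls held (edgeR adjusted p 0.0639 to 0.272). Without DexKLA replicate 1 all but TFPI were lost (0.0504 to 0.207), and TFPI was lost without DexKLA replicate 2 (0.0593). KNG1 was also lost without DMSO replicate 3 (0.107) and DexKLA replicate 3 (0.0550).

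DexKLA was set against Dex to ask what KLA added. No gene at all was called by edgeR (0% of all tested genes) or by DESeq2. At an unadjusted p under 0.05, edgeR gave 5 members (11.4%), against 7.09% of all tested genes, and DESeq2 gave 6 (13.6%), against 5.78%. The 5 from edgeR were F2 at -0.22 ± 0.10, PROZ, protein Z, a cofactor for inhibiting factor Xa, at -0.48 ± 0.19, CFB, complement factor B, at -0.23 ± 0.10, VTN at -0.36 ± 0.11 and CLU at -0.29 ± 0.11, each with an edgeR adjusted p of 0.695. DexKLA libraries lay wholly below Dex libraries for 8 members (18.2%), against 6.3% of all tested genes, and wholly above for 3 (6.82%), against 6.4%.

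Among the 10 tested procoagulant factors, F5 and KNG1 were called at least once, while F2, F3, F7, F10, F11, F12, F13B and KLKB1 were not. F3, tissue factor, had the lowest uncalled value of these against DMSO, -0.74 ± 0.28 in DexKLA (edgeR adjusted p = 0.131). Of the 7 anticoagulants, SERPIND1 and TFPI were called, and PROC, PROS1, PROZ, PROCR and SERPINC1 were not. None of the 4 fibrinolysis genes PLG, PLAU, PLAUR and SERPINF2 was called. In the complement groups C2 and MBL2 were called of 8 classical and lectin genes, C3 of C3 and CFB, C8B of 4 tested terminal genes, and C4BPB, CLU and VTN of 9 inhibitors. C1R, C1S, C4A, C4B, MASP1, MASP2, C5, C8A, C8G, SERPING1, C4BPA, CFI, CD46, CD55 and CD59 were not called in any of the 7 comparisons.

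Some members are neighbours in the genome. F7, F10 and PROZ lie in a row on chromosome 13, with Dex versus DMSO values of 0.27 ± 0.13, 0.24 ± 0.11 and 0.22 ± 0.20, none of them called. C1S and C1R, the proteases of the first classical component, are neighbours on chromosome 12 with -0.47 ± 0.17 and -0.02 ± 0.32. Neither was called, and differences between neighbours were not tested.

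Other genes of the same pathways were taken from a list of 45, of which 20 were tested and 8 (40%) called in at least 1 comparison, against 15.8% of all tested genes. The list was chosen with earlier results of these data known, so its shares are a description and not independent support. In Dex versus DMSO 4 of the 20 (20%) were called, against 2.05% of all tested genes, and in KLA versus DMSO 6 (30%), against 13.7%. FGA and FGB, chains of fibrinogen, and A2M, the protease inhibitor alpha-2-macroglobulin, fell in Dex relative to DMSO, and CPB2, a carboxypeptidase that protects fibrin from plasmin, rose. The A2M change was -0.57 ± 0.13 (edgeR adjusted p = 0.0239). The CPB2 libraries had 185, 219 and 168 CPM in DexKLA, 169, 181 and 181 CPM in Dex, 158, 159 and 187 CPM in KLA, and 98, 115 and 127 CPM in DMSO. All treated libraries were above all DMSO libraries, as for TFPI. CPB2 rose by 0.64 ± 0.12 in Dex (edgeR adjusted p = 0.00645), by 0.56 ± 0.12 in KLA (0.0102) and by 0.74 ± 0.12 in DexKLA (0.00169), comparisons that share the DMSO libraries. The mean Dex effect was 0.41 ± 0.08 for CPB2 (0.00846), -0.60 ± 0.08 for FGA (0.000115), -0.54 ± 0.08 for FGB (0.000161) and -0.36 ± 0.08 for FGG (0.0216). In KLA versus DMSO, FGA, A2M and LMAN1 fell and CPB2, ANXA2 and VKORC1 rose, in DexKLA versus DMSO the 4 genes of Dex versus DMSO were called in the same directions, and in DexKLA versus KLA only FGB was called, at -0.50 ± 0.11 (0.0249).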

How the data were processed

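Total RNA of HepG2 cells was sequenced in 12 libraries, 3 per group. Per the submitters' processing notes the tools were BWA 0.7.17, HOMER 4.10 and Trimmomatic, on hg38, with no role stated for any. The deposited values for 70507 RefSeq transcripts come in steps of 0.5 and were treated like expected counts, since how the authors made them is not given in the sources used here. They were rounded, 406 transcripts with no symbol (1.71% to 2.55% of a library's counts) were left out, and the transcript with the highest total was kept per symbol. Per-sample columns of the deposited file were matched to the labels by name.

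Genes were filtered with filterByExpr (minimum count 10), which left 13166, scaled with TMM and fitted with edgeR 4.0.16 (R 4.3.3, data.table, version 1.17.8) as 1 quasi-likelihood model of 4 group means with 8 residual degrees of freedom. In each of 7 comparisons, Benjamini-Hochberg adjustment covered all tested genes. Levels are TMM-normalised CPM, or CPM on plain totals for F9, C6 and the marker sums, and CPM per kb between genes. Changes are fitted log2 values ± SE. Values of other transcripts use a pseudocount of 0.5 CPM and no test. Values are given in every library for members called in any comparison and for the member with the highest CPM per kb in each role. The members and lists were chosen with earlier results of these data known.

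Alternatives were other scalings, DESeq2 1.42.0, other filters, a replicate block, the longest transcript, a trend on transcript length, depth class, fewer libraries and each library left out. The script was tested on simulated counts. Of 15 pairs of libraries with the same replicate number, 0 deviated together with a correlation over 0.1. This gave no sign of pairing by number, but with 3 libraries per group it cannot exclude pairing. Replicates of a group differed by more than counting noise. Gene overlaps are from GENCODE v29 on hg38 and promoters from RefSeq (GRCh38.p14). For 9 members no promoter was used.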

Additional observations from a re-analysis of the deposited data

How the results depend on the processing

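No called member changed direction under any alternative. The calls of MBL2 and C8B for the mean Dex effect held in all 12 leave-out fits and all 10 other settings in which it was fitted. This effect was not fitted in 6 libraries alone, nor in the shallower or deeper libraries alone. The count of members called in Dex versus DMSO (3) was 6 with library size alone, 6 with DESeq2, 5 without a filter, 6 in its 6 libraries alone, 5 in the shallower libraries and 1 with DMSO replicate 1 and KLA replicate 3 both left out. Over all tested genes the share called (2.05%) was 3.03%, 4.98%, 4.55%, 11%, 3.83% and 1.88% in the same settings. In KLA versus DMSO (6) it was 10 with library size alone, 9 with DESeq2, 0 with depth class as a covariate and 0 with those 2 libraries left out, against 17.1%, 15.7%, 0.0304% and 0.0377% of all genes. In DexKLA versus DMSO (8) it was 1 with depth class and 4 without those 2 libraries (1.31% and 1.39% of all genes). In DexKLA versus KLA (1) it was 2 with DESeq2, 3 without a filter, 0 in the deeper libraries and 3 without those 2 libraries (0.881%, 1.02%, 0.11% and 0.814% of all genes). For the mean Dex effect (5) it was 9 without a filter (1.57% of all genes), and in the interaction (0) it was 3 without a filter (F5, MBL2 and TFPI, with 5.23% of all genes). The cause of these moves was not tested. The settings with the shallower or deeper libraries and without those 2 libraries were chosen after seeing the data.

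Leaving out each library in turn gave counts of 0 to 6 in Dex versus DMSO, 0 to 10 in KLA versus DMSO, 0 to 13 in DexKLA versus DMSO, 0 to 1 in DexKLA versus KLA, 0 to 0 in DexKLA versus Dex, 2 to 7 for the mean Dex effect and 0 to 0 in the interaction. With the replicate number as a block the mean Dex count was 2, and KNG1 in Dex versus DMSO had an edgeR adjusted p of 0.0506. Whether the numbers pair the libraries is not known. Library size alone moved the median of all genes to -0.11, -0.13 and -0.12 in Dex, KLA and DexKLA versus DMSO and to 0.13 in the interaction, where the members' median of -0.07 became 0.04. PLAU, KLKB1, PLAUR and F3 rest on few counts, and F9 and C6 were not testable at this depth.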
